A study of Mus musculus with 4 samples.

Results

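Zinc finger genes of the mouse lie in clusters, and one of these clusters occupies a region of chromosome 4 that 9 of the 56980 genes in the matrices were taken from. The 9 genes were chosen by symbol because they stood higher in TKO than in Ctrl keratinocytes of these same libraries, in 2 stretches of GRCm39 chromosome 4 that together run from position 145190868 to 147363553. The first stretch (145190868 to 145370969) held 4 members and the second (147017199 to 147363553) held 5, with 1646 kb between them. Only Zfp990 and Zfp268 are annotated as zinc finger genes. Smarca5-ps, Gm13231, Gm13140, Gm13135, Gm13142 and Gm20760 are processed pseudogenes, and 4933438K21Rik is a long noncoding RNA gene. "Zinc finger gene cluster" therefore describes where the members lie more than what they encode.

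Proteins of the KRAB zinc finger family bind DNA, often within retroelements, and recruit TRIM28 with SETDB1, an enzyme that places the repressive histone mark H3K9me3. Clusters of KRAB zinc finger genes are themselves known to be covered by H3K9me3 in many cell types. A processed pseudogene, or retrocopy, is a copy of a spliced messenger RNA that was inserted elsewhere in the genome. It carries no introns and usually not the regulatory sequence upstream of its parent gene.

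The 4 libraries came from dorsal skin epidermis of mouse embryos, E16.5 per the labels, although the litters listed by the study for this experiment were at E15.5. Cells positive for Epcam and α6 integrin had been sorted, and 1 embryo per library was used on a mixed genetic background. Both groups carried Suv39h1 f/f, Suv39h2-/- and Setdb1 f/f and received tamoxifen. The 2 Ctrl libraries were K14CreERT2- and the 2 TKO libraries K14CreERT2+, in which a tamoxifen-dependent Cre is driven by the keratin 14 promoter of basal keratinocytes. Cre action in this line is mosaic, so a TKO library can hold cells that kept the floxed alleles.

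The matrices held 19789 barcodes and 309291898 UMIs, and 39 barcode sequences occurred in 2 libraries. A UMI is a molecular tag that counts each captured RNA once. After filters, 9176 keratinocytes remained, 2841 and 2987 in Ctrl replicates 1 and 2 and 1562 and 1786 in TKO replicates 1 and 2, with 52251903 to 68185664 UMIs per library. The median keratinocyte was deeper in TKO (30072.5 and 28087 UMIs) than in Ctrl (21960 and 17329 UMIs). Against the sort, 1284 cells lay in fibroblast-, immune-, melanocyte- or endothelial-like clusters, 178 and 208 in Ctrl and 465 and 433 in TKO, and were kept apart as non-keratinocytes. Clusters led by stress genes such as Fosl1 and Klf2 were unequal between libraries, the bigger of these holding 205 and 500 Ctrl cells and 201 and 84 TKO cells. The part of these differences in the values below was not tested, except where values at 5000 UMIs per cell are given.

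Setdb1, which is floxed in all 4 libraries, had 67.9 and 58.2 CPM (its UMIs scaled to the total of the cell group) in Ctrl keratinocytes and 39.5 and 42.5 CPM in TKO keratinocytes. Its log2 change was -0.64 (SE 0.127, adjusted p = 0.0464, edgeR), a call that 3 of 10 alternative settings kept. In non-keratinocytes Setdb1 had 84.6 ± 1.07 CPM in Ctrl and 83.3 ± 8.02 in TKO (mean ± SD, n = 2). Suv39h1 (log2 change -0.17, adjusted p = 0.486) and Suv39h2 (0.29, adjusted p = 0.404) did not pass. Suv39h2, labelled -/- in all 4 libraries, had 14 and 17.1 CPM in Ctrl and 22.6 and 16 CPM in TKO, so its counts do not check that deletion. Reads at the 3' end of a gene do not tell if its floxed exons were deleted.

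The 6 retrocopies among the members came from 3 parent genes. Smarca5 on chromosome 8, which encodes the motor of ISWI chromatin remodelling complexes, gave rise to Smarca5-ps, Gm13231, Gm13140 and Gm13135. Their transcripts were 96.8%, 97.2%, 97.2% and 97.1% identical to that of Smarca5 over 2871 to 3163 aligned bases. Gm13142 was 95.6% identical to Ppp2r5a, a regulatory subunit of protein phosphatase 2A, over 1460 bases. Gm20760 was 92.8% identical to Cdv3 over 526 bases. Because a read is assigned to a copy or its parent by the bases that differ, the gap-free 100-base stretch of each parent's coding sequence with the most differences is printed, with capitals at the bases of a copy that differ from its parent. Bases 1694 to 1793 of the Smarca5 coding sequence (GRCm39, GENCODE vM39) are shown with the 4 copies, all on the plus strand of chromosome 4, at chr4:145192534-145192633, chr4:145369386-145369485, chr4:147028633-147028732 and chr4:147362100-147362199.
Smarca5: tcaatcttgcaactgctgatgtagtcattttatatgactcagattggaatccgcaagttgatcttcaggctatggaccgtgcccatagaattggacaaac
Smarca5-ps: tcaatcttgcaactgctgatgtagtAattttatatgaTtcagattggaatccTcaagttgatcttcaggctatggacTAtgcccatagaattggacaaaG
Gm13231: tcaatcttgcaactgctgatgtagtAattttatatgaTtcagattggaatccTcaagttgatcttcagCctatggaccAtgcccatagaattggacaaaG
Gm13140: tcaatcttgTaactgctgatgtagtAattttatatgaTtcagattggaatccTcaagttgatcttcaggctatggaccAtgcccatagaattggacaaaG
Gm13135: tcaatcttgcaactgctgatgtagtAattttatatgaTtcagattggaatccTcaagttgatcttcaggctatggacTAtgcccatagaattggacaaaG

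Each copy had 6 differences in this stretch, over 8 positions in all, and 5 of those differences were shared by all 4 copies. For Ppp2r5a the stretch spanned coding bases 586 to 685, and Gm13142 (chr4:147187576-147187675, plus strand) had 8 differences there.
Ppp2r5a: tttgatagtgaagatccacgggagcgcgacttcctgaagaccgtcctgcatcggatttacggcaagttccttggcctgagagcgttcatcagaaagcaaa
Gm13142: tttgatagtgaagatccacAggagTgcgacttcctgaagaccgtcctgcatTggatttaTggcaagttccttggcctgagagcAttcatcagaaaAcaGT

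For Cdv3 it spanned coding bases 63 to 162, and Gm20760 (chr4:147017258-147017357, plus strand) had 11 differences.
Cdv3: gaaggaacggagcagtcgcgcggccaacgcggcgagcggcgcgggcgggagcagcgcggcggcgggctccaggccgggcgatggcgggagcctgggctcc
Gm20760: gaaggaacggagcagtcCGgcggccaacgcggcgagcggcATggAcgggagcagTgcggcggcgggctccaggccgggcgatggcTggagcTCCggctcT

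Other gap-free coding stretches of this length held no more differences, summed over the copies of a parent. Gaps and untranslated sequence were not part of this search. In the last 500 bases of each annotated transcript the share of 90-base windows with no exact match in another gene's transcript was counted. It was 69.8% (Smarca5-ps and Gm13231), 66.9% (Gm13140), 49.6% (Gm13135), 89.8% (Gm13142) and 76.9% (Gm20760). The same share was 100% for Zfp990 and 4933438K21Rik and 74.0% for Zfp268, whose closest relative by sequence was Zfp984 (94.9% identical over 2023 bases). Genes that overlap a member were left out of this comparison, and Gm13135 lies inside a long noncoding RNA gene on the same strand. The annotated transcripts of Smarca5-ps (3123 bases) and Gm13142 (1453 bases) are about as long as the coding sequences of Smarca5 (3153) and Ppp2r5a (1458). Whether 3' reads of the copies fall near these annotated ends is not known. UMIs of the copies are therefore uncertain, and Gm13135 is the least certain. Smarca5-ps and Gm13135 were closest to each other (97.9% identical).

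The zinc finger members had related upstream sequence, and the retrocopies did not share it. The 300 bases from 250 before to 50 after the annotated start of Zfp990 (chr4:145237037-145237336) and Zfp268 (chr4:145311461-145311760), both plus strand, were identical at 222 of 300 aligned bases. They are printed because these members stood higher in the same libraries. Capitals mark CCAAT on either strand (read here as ATTGG) and, in Zfp268, GGGCGG, which overlaps its second ATTGG.
Zfp990: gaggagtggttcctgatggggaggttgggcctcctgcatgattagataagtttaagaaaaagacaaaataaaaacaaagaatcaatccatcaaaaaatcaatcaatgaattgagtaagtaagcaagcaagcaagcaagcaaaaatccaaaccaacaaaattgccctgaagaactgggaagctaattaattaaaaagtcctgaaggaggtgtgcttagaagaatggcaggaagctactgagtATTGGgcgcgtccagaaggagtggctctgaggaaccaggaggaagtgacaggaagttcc
Zfp268: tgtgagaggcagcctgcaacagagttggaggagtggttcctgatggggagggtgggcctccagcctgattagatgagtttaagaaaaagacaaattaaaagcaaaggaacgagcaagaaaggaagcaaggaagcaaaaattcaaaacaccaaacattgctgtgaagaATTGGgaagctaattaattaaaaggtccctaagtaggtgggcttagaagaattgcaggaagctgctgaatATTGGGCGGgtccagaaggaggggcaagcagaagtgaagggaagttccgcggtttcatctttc

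The windows were searched on both strands for 5 short motifs of general promoters. These were the CCAAT box, the GC box (6 letters, GGGCGG), the TATA box (6 letters, TATAAA), the E-box (6 letters, CACGTG) and the CRE core (5 letters, TGACG). Zfp990 held CCAAT, and Zfp268 held both CCAAT and GGGCGG. The first occurred in 37.6% and the GC box in 18.6% of 78287 gene windows of the same length in GENCODE vM39. The window of 4933438K21Rik held TATAAA, which 16.7% of windows had. The 6 retrocopies had 33 to 52 CG dinucleotides in their windows, at least as many as 97.0% of all windows, against 2 in Zfp990, 4 in Zfp268 and 4 in 4933438K21Rik (median of all windows, 4). In the 4 Smarca5 copies all 250 bases before the annotated start aligned to the Smarca5 transcript itself, at 93.6% to 96.8% identity, as did 249 bases in Gm13142 (95.6%) and 247 in Gm20760 (93.5%). These CG-rich windows are thus further parts of the copied messenger RNA.

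In keratinocytes all 9 members stood higher in both TKO libraries than in both Ctrl libraries. This contrast chose the members, so it is described here with no test. The fit over all genes called 1385 of 19931 (6.95%) and called 863 of them (4.33%) as raised, and 5773 (29%) had both TKO libraries above both Ctrl libraries. Zfp268 (ENSMUSG00000078502, 145311711 to 145351915) had 13.3 and 14.6 CPM in Ctrl and 31.5 and 40.4 CPM in TKO, from 907, 835, 1647 and 2184 UMIs. Its log2 change was 1.36 (SE 0.169). Zfp990 (ENSMUSG00000078503, 145237287 to 145269397) had 19.8 and 18.3 CPM in Ctrl and 30.5 and 34.1 CPM in TKO, from 1352, 1048, 1595 and 1844 UMIs. Its log2 change of 0.75 (SE 0.131) was the smallest of the 9 members. Both zinc finger genes were already well detected in Ctrl.

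The 4 Smarca5 copies had few UMIs in Ctrl. Smarca5-ps (ENSMUSG00000052912, 145190868 to 145193990) had 93 and 67 UMIs in Ctrl against 589 and 490 in TKO, or 1.27 ± 0.137 and 10.2 ± 1.57 CPM (mean ± SD, n = 2), a log2 change of 2.98 (SE 0.219). Gm13231 (ENSMUSG00000081885, 145367927 to 145370969) had 7 and 12 UMIs in Ctrl against 158 and 154 in TKO, a log2 change of 4.23 (SE 0.379). Gm13135 (ENSMUSG00000082925, 147360433 to 147363553) had 7 and 3 UMIs in Ctrl against 55 and 38 in TKO, a log2 change of 3.41 (SE 0.489). For Gm13140 (ENSMUSG00000083027, 147026933 to 147030282) 3 and 0 UMIs were counted in Ctrl and 32 and 28 in TKO. Its pooled CPM ratio of 23.6 rests on 3 Ctrl UMIs. The 95% counting interval, 7.69 to 117.6, covers counting error only and is no test, because this contrast chose the members. Both TKO libraries lay above both Ctrl libraries for each of the 4 copies, and the TKO libraries of Gm13135 were at 1.053 and 0.702 CPM.

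The copies of other parents and the long noncoding RNA were higher by smaller factors. Gm13142 (ENSMUSG00000081405, 147186784 to 147188438) had 50 and 44 UMIs in Ctrl against 157 and 160 in TKO, a log2 change of 1.97 (SE 0.237). Gm20760 (ENSMUSG00000093919, 147017199 to 147017846) had 19 and 17 UMIs in Ctrl against 82 and 57 in TKO, a log2 change of 2.16 (SE 0.345). 4933438K21Rik (ENSMUSG00000093617, 147106583 to 147198247, minus strand) had 17 and 15 UMIs in Ctrl against 48 and 39 in TKO, a log2 change of 1.66 (SE 0.341). Gm13142 lies inside 4933438K21Rik on the opposite strand, and Rex2 also overlaps it. The strand setting of the counting was not given in the sources used here, so reads of these genes may not have been kept apart. The median log2 change of the 9 members was 2.16, against -0.02 for all 19931 genes tested. With every cell thinned to 5000 UMIs the members' median was 2.40. Summed over the 9 members, TKO keratinocytes had 83.5 and 92.3 CPM against a Ctrl mean of 35.8 ± 0.256 CPM (SD, n = 2). Zfp990 and Zfp268 gave most UMIs of this sum, with 2400 and 1742 in Ctrl and 3439 and 3831 in TKO.

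**Figure D1:**
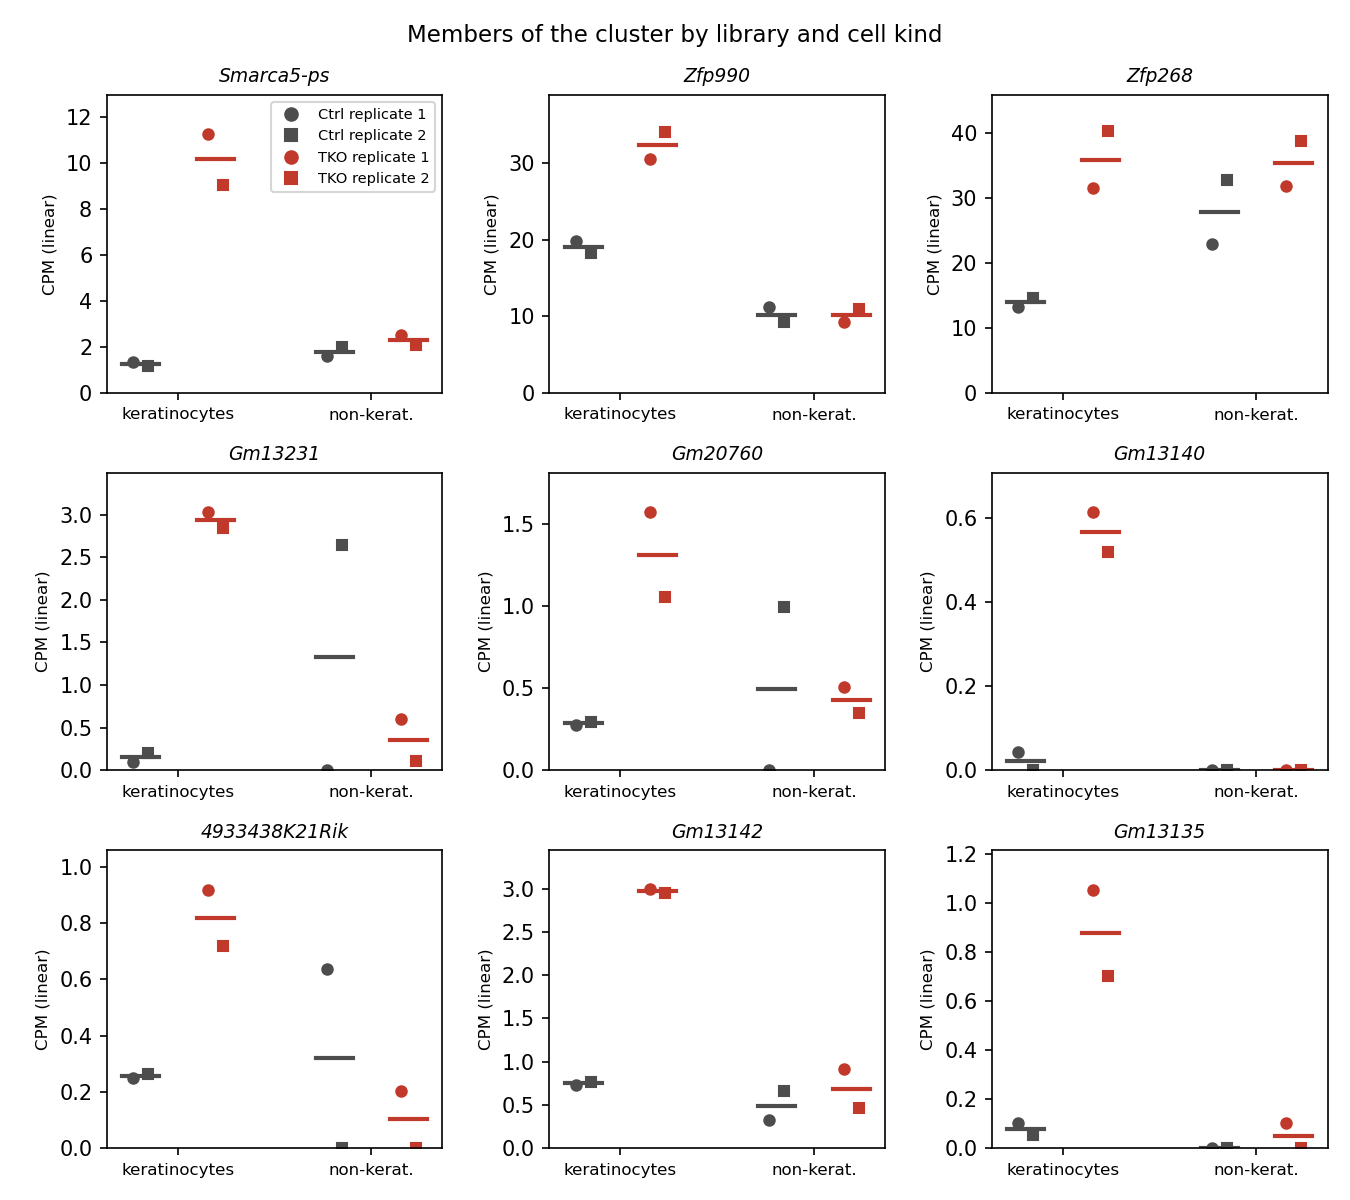
Level of each member (CPM, linear axes from 0) in keratinocytes and non-keratinocytes, with Ctrl in grey and TKO in red. Each point is 1 library and each horizontal bar the mean of 2; in keratinocytes both TKO points lie above both Ctrl points for all 9 members.

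The parent genes had smaller log2 changes than their copies. The copies were chosen as raised in TKO keratinocytes and the parents were not, which favours this order in advance. Smarca5 had 200.3 and 210.5 CPM in Ctrl against 256.6 and 243.8 CPM in TKO, and its log2 change of 0.27 (SE 0.0857) did not pass (adjusted p = 0.128, edgeR). Ppp2r5a had a log2 change of -0.15 (SE 0.102, adjusted p = 0.417, edgeR). Cdv3 rose by 0.49 (SE 0.0967, adjusted p = 0.0451, edgeR). Per 100 UMIs of its parent, Smarca5-ps had 0.681 and 0.556 UMIs in Ctrl against 4.39 and 3.72 in TKO. Gm13231 had 0.0513 and 0.0996 in Ctrl and 1.18 and 1.17 in TKO, and Gm13142 had 1.28 and 1.25 in Ctrl and 5.77 and 5.30 in TKO. The ratio of copy to parent UMIs was thus higher in both TKO libraries, as the level of the copy was. The choice of the copies favours this too.

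Copies of the same parents that are not members lay nearby and elsewhere, and are given for comparison. Copies counted here as in the cluster lie between 145182203 and 147831018, beyond the span of the members on both sides. All 6 annotated Smarca5 copies lie on chromosome 4 between 145190868 and 147822883. The 2 that are not members had 0.0732 and 0.166 UMIs per 100 Smarca5 UMIs in Ctrl against 1.47 and 1.27 in TKO. Gm13034 had 5 and 6 UMIs in Ctrl against 133 and 99 in TKO, and Gm13136 had 5 and 14 in Ctrl and 64 and 68 in TKO. The 3 Ppp2r5a copies of the cluster that are not members had 0.436 and 0.340 UMIs per 100 parent UMIs in Ctrl against 1.65 and 0.728 in TKO. The 1 copy on another chromosome, Gm12101, had 0 and 0 UMIs in Ctrl against 2 and 4 in TKO. The 8 Cdv3 copies of the cluster that are not members had 0.0903 and 0.0927 UMIs per 100 Cdv3 UMIs in Ctrl against 0.328 and 0.348 in TKO, from 10, 8, 40 and 40 UMIs. The 2 Cdv3 copies elsewhere, Cdv3-ps and Gm14239, had 1.42 and 1.49 per 100 Cdv3 UMIs in Ctrl and 0.837 and 1.19 in TKO, where Cdv3 itself was higher. Their own levels overlapped between the groups, with 1.91 and 1.94 against 1.67 and 2.16 CPM for Gm14239 and 0.396 and 0.314 against 0.287 and 0.370 CPM for Cdv3-ps. The difference between copies inside and outside the cluster rests on 3 genes outside it and was not tested.

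**Figure D2:**
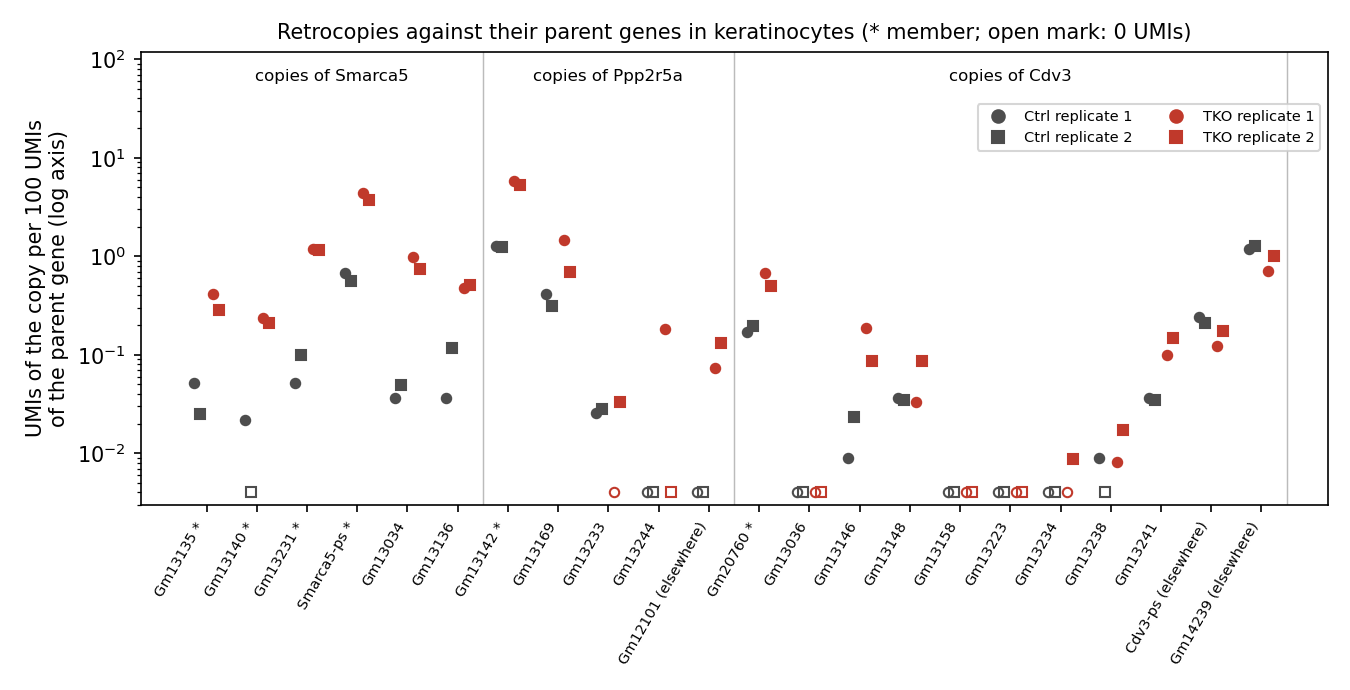
UMIs of each retrocopy per 100 UMIs of its parent gene in keratinocytes (log axis), by library; asterisks mark members, open marks at the lower edge stand for 0 UMIs, and "elsewhere" marks copies on other chromosomes. All 6 Smarca5 copies lie higher in TKO than in Ctrl, and Gm14239 and Cdv3-ps lie lower in TKO relative to Cdv3, which was itself higher there.

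The members stood among 63 annotated genes of the window that were in the matrices, 16 of which had no UMI in keratinocytes. Of the 54 that are not members, 20 were tested, 2 were called raised (4.33% of all genes were) and none lowered. Gm13034, a Smarca5 copy between the stretches, had a log2 change of 4.58 (SE 0.384, adjusted p = 0.00588, edgeR). Gm13165, a long noncoding RNA gene, had 17 and 12 UMIs in Ctrl against 95 and 57 in TKO (2.61, SE 0.399, adjusted p = 0.0253, edgeR). The other 18 did not pass, although 19 of the 20 log2 changes were above 0 and their median was 0.72. The window was picked for its raised genes, so this count is no independent sign of a regional shift.

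The other zinc finger genes of the window were not called. Of 9 other numbered Zfp genes there, 7 were tested and 0 called, with log2 changes of 0.30 to 1.34 and a median of 0.60. The closest to a call was Zfp992, with 1612 and 1165 UMIs in Ctrl against 1770 and 1819 in TKO (0.60, SE 0.126, adjusted p = 0.0518, edgeR). Zfp981 (0.76, SE 0.235) and Zfp987 (1.34, SE 0.430) had larger log2 changes than the member Zfp990, at 0.75, and did not pass either (adjusted p = 0.12 and 0.13, edgeR). Outside the window 337 numbered Zfp genes were tested, 8 were called raised and 3 lowered, below the 6.95% called over all genes, and their median log2 change was -0.09.

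**Figure D3:**
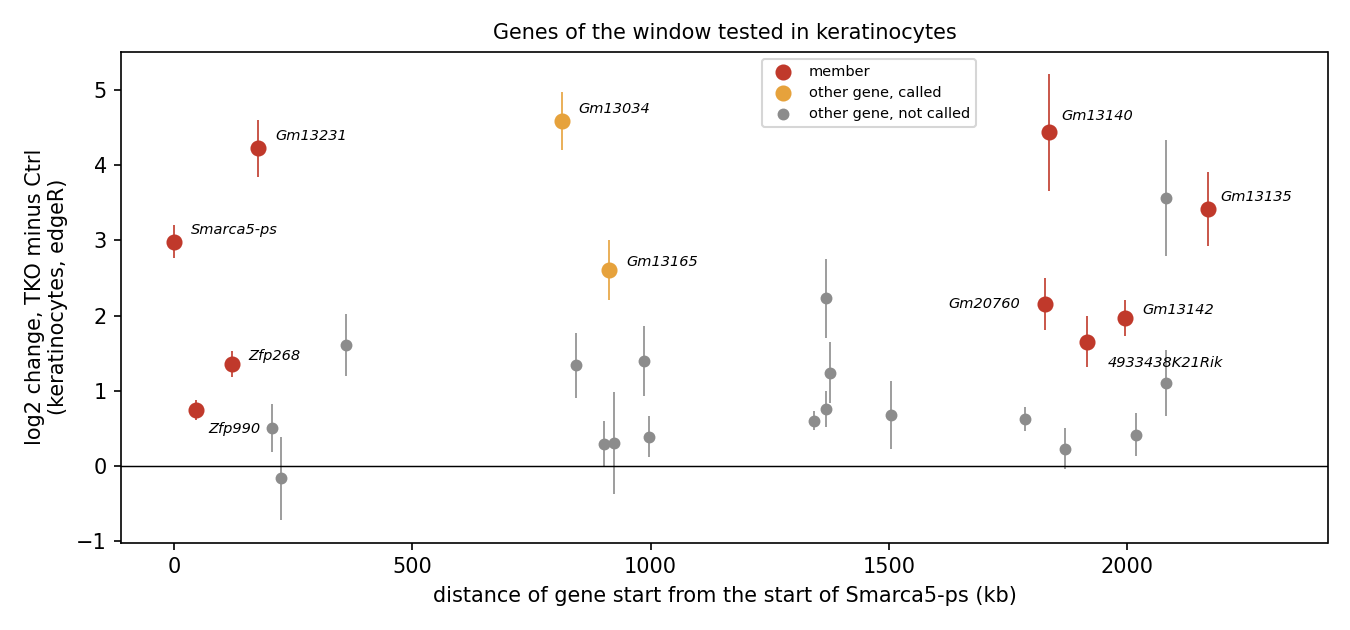
Log2 change, TKO minus Ctrl, of the 29 tested genes of the window in keratinocytes against the distance of the gene start from the start of Smarca5-ps (kb); bars are ± 1 SE from the edgeR fit. The 9 members are red, Gm13034 and Gm13165 amber and the 18 genes not called grey; all but 1 of the 29 lie above 0.

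Zfp268, a zinc finger gene of the first stretch, was the member that differed most often between cell classes. Keratinocytes were clustered again without the genes called between genotypes, which left the members out, and were named basal-like, differentiating-like and hair follicle-like from marker genes. Zfp268 in Ctrl had 14.2 and 13.7 CPM in basal-like, 6.94 and 6.40 in differentiating-like and 21 and 22.9 in hair follicle-like cells. The 3 classes did not overlap. With components not corrected for library, a class was filled by different clusters in the 2 genotypes. The differentiating-like cells of 1 such cluster were 51 and 41 in Ctrl against 138 and 319 in TKO, another held 337 and 263 against 22 and 28, and a basal-like one held 2 and 0 against 398 and 116. Genotype values within a class may therefore compare different cells. In TKO the same gene had 31.5 and 41.5 CPM in basal-like, 23.8 and 27.3 in differentiating-like and 38.3 and 51.7 in hair follicle-like cells, where basal-like and hair follicle-like values overlapped.

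Within Ctrl, Zfp268 was lower in differentiating-like than in basal-like cells (log2 difference -0.72, SE 0.118, adjusted p = 0.00069, edgeR) and higher in hair follicle-like than in basal-like cells (0.52, SE 0.106, adjusted p = 0.00586, edgeR). Zfp990 was also lower in differentiating-like than in basal-like Ctrl cells (-0.48, SE 0.122, adjusted p = 0.00794, edgeR). These were 2 of the 9 members called between differentiating-like and basal-like cells, where 60.6% of all genes were called, and 1 of 9 between hair follicle-like and basal-like cells, where 28.6% were. Between hair follicle-like and differentiating-like Ctrl cells 2 members were called, where 66.7% of all genes were. They were Zfp268 (1.24, SE 0.122, adjusted p = 2.27e-05, edgeR) and Zfp990 (0.39, SE 0.129, adjusted p = 0.0247, edgeR). Gm13135 also passed the threshold, but is not counted, because it had 3 and 1 UMIs against 0 and 0 and entered the fit through its TKO libraries.

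Within TKO, Zfp268 was again lower in differentiating-like than in basal-like cells (-0.32, SE 0.103, adjusted p = 0.027, edgeR) and higher in hair follicle-like than in differentiating-like cells (0.50, SE 0.107, adjusted p = 0.00323, edgeR). Gm13142 went the other way. It had 2.81 and 2.74 CPM in basal-like, 4.21 and 3.48 in differentiating-like and 2.92 and 2.75 in hair follicle-like TKO cells. It was higher in differentiating-like than in basal-like cells (0.65, SE 0.238, adjusted p = 0.0455, edgeR) and lower in hair follicle-like than in differentiating-like cells (-0.74, SE 0.273, adjusted p = 0.0416, edgeR). Of the 9 members 2 were thus called between differentiating-like and basal-like TKO cells (54.2% of all genes), 2 between hair follicle-like and differentiating-like (61.2%) and 0 between hair follicle-like and basal-like (28.5%). In the test of the class differences between genotypes, 1 of 9 members was called for hair follicle-like against differentiating-like cells (Zfp268, with 3.25% of all genes called), 0 for differentiating-like against basal-like cells (3.22%) and 0 for hair follicle-like against basal-like cells (0.856%). Both Gm13142 calls were lost in 8 of 12 alternatives, and the Zfp268 calls within TKO in 5 of 12 and 2 of 12. The call of Zfp268 between genotypes was lost in 10 of 12.

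Zfp990 and Smarca5-ps were not called between classes in TKO. Zfp990 had 30.5 and 35.9 CPM in basal-like, 27.8 and 25 in differentiating-like and 34.3 and 40.4 in hair follicle-like TKO cells, against 22.4 and 20.4, 12.6 and 11.9, and 25 and 19.3 in Ctrl. Its log2 difference between differentiating-like and basal-like TKO cells was -0.15 (SE 0.116). Smarca5-ps had 10.6 and 8.50, 9.61 and 8.45, and 15.4 and 10.0 CPM in the 3 TKO classes. Its log2 difference between hair follicle-like and basal-like TKO cells was 0.27 (SE 0.168), with the replicates 15.4 and 10.0 far apart. The other 5 members had 2 to 97 UMIs per TKO library and class, and the SEs of their TKO class differences were 0.38 to 0.83 on the log2 scale, so a difference as small as that of Zfp268 was not detectable for them. In Merkel-like cells, of which only 11 to 34 were found per library, Smarca5-ps had 1 and 0 UMIs in Ctrl against 11 and 12 in TKO, and Gm13231 had 0 and 0 in Ctrl and 4 and 5 in TKO. This cluster held 16 and 11 TKO cells only with components corrected for library; without the correction it held 31 and 23 Ctrl cells and 0 TKO cells, so its TKO values depend on that step.

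**Figure D4:**
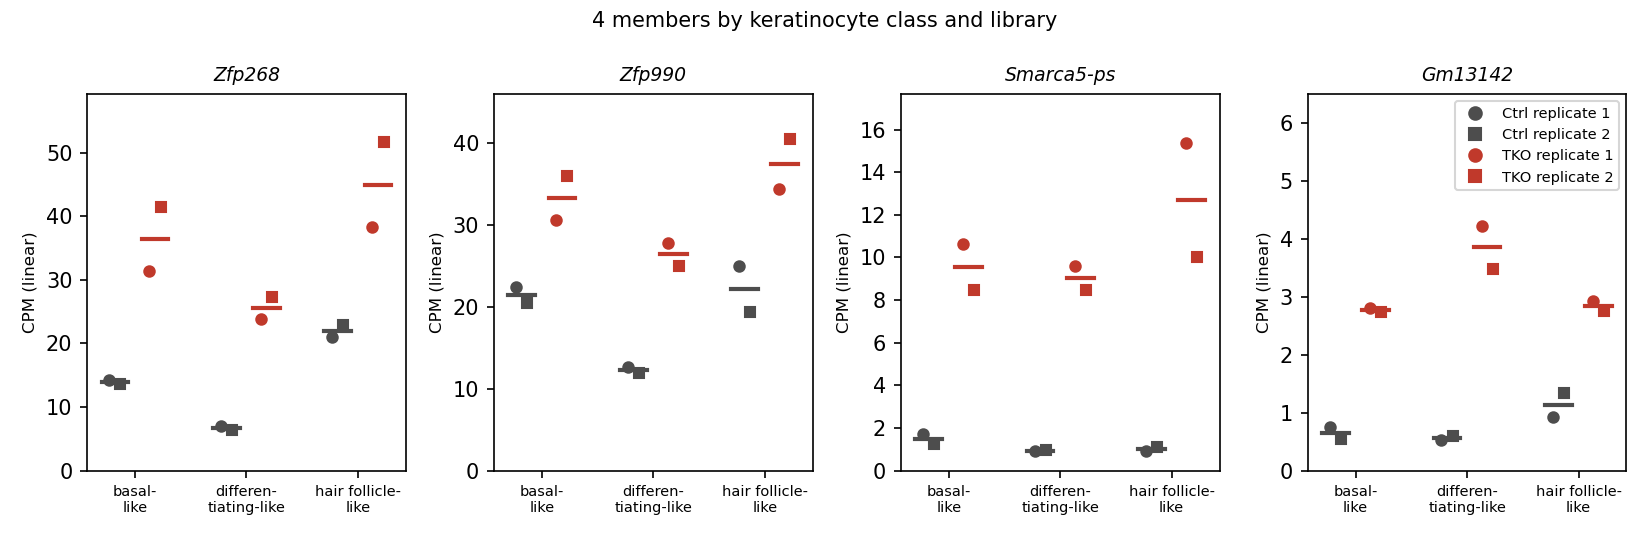
CPM of Zfp268, Zfp990, Smarca5-ps and Gm13142 in the 3 keratinocyte classes, by library (linear axes from 0); points are libraries and horizontal bars group means. Zfp268 is lower in differentiating-like than in hair follicle-like cells in both genotypes, whereas Gm13142 is highest in differentiating-like TKO cells, at 4.21 and 3.48 CPM.

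Non-keratinocytes of the same embryos, which the choice of members did not use, gave a test between genotypes. The keratin 14 promoter is not known to be active in these cells. Free RNA from keratinocytes can reach them, however, and its share was not measured. Summed over 6 keratins, their clusters had 227 to 6802 CPM, the most in the melanocyte-like one. Smarca5-ps had 5 and 6 UMIs in Ctrl against 25 and 18 in TKO, or 1.59 and 1.99 CPM against 2.53 and 2.09 CPM. Its log2 change was 0.36 (SE 0.467, adjusted p = 0.804, edgeR). Zfp990 had 11.2 and 9.27 CPM in Ctrl and 9.31 and 10.9 CPM in TKO (-0.02, SE 0.271, adjusted p = 0.986, edgeR), so that the groups overlapped. Zfp268 had 23 and 32.8 CPM in Ctrl and 31.9 and 38.8 CPM in TKO (0.34, SE 0.251, adjusted p = 0.656, edgeR), and these groups overlapped too. The mix of these cells differed, since fibroblast-like cells were 104 of 178 and 104 of 208 in Ctrl but 183 of 465 and 126 of 433 in TKO. Within immune-like cells Zfp268 had 42.8 and 48.9 CPM in Ctrl and 48.0 and 48.3 CPM in TKO, and within fibroblast-like cells 11.6 and 17.0 against 11 and 13.3 CPM. In fibroblast-like cells Smarca5-ps had 2.44 and 3.41 CPM in Ctrl against 4.82 and 5.69 CPM in TKO, from 4, 5, 18 and 12 UMIs, so both TKO libraries were higher there, and in immune-like cells it had 0 to 4 UMIs. These values within types were not tested, and free keratinocyte RNA was not subtracted from them. The pooled test does not separate level from mix.

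None of the 3 members that could be tested was called, with edgeR or with DESeq2. Over all genes edgeR called 0 of 14815 (0%), while 1588 had an unadjusted p under 0.05 and DESeq2 called 117. The Ctrl non-keratinocytes held only 3135215 and 3020970 UMIs, and the intervals of the changes were wide. The 95% intervals ran from -0.79 to 1.52 for Smarca5-ps, from -0.69 to 0.65 for Zfp990 and from -0.28 to 0.96 for Zfp268. The other 6 members did not pass the filter on low counts. Gm13140 had 0 UMIs in all 4 libraries, Gm13135 had 1 in all, and Gm13142 had 1 and 2 in Ctrl and 9 and 4 in TKO. Gm13231 had 0 and 8 UMIs in Ctrl against 6 and 1 in TKO, and all 8 of Ctrl replicate 2 lay in fibroblast-like cells. Summed over the 9 members, non-keratinocytes had 42.5 ± 8.24 CPM (Ctrl) and 49.4 ± 4.71 CPM (TKO), against 35.8 ± 0.256 and 87.9 ± 6.22 CPM in keratinocytes (mean ± SD, n = 2). Zfp990 and Zfp268 made up most of these sums in both cell groups. The difference of genotype effects between these cell groups was not tested.

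Shares of cells with a UMI were compared after thinning each cell to 5000 UMIs, leaving out shallower cells and keeping 2818 and 2949 Ctrl and 1558 and 1779 TKO keratinocytes. For the 7 members other than Zfp990 and Zfp268 as 1 group, 1.70% (48 of 2818) and 1.36% (40 of 2949) of Ctrl keratinocytes had a UMI, with exact 95% binomial intervals of 1.26 to 2.25% and 0.971 to 1.84%. In TKO the shares were 10.2% (159 of 1558; 8.75 to 11.8%) and 8.38% (149 of 1779; 7.13 to 9.76%). Without thinning they were 6.23% and 4.99% in Ctrl and 42.1% and 35.9% in TKO. In TKO non-keratinocytes, whose median depth was 18248 and 17045 UMIs, the thinned shares were 1.72% (8 of 464; 0.747 to 3.37%) and 1.41% (6 of 426; 0.519 to 3.04%). They were thus near the 1.12% and 1.46% of Ctrl non-keratinocytes and the shares of Ctrl keratinocytes. These intervals cover counting error only.

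In each of the 3 classes the share was higher in both TKO libraries. It was 9.53% and 8.49% in basal-like, 10.3% and 7.61% in differentiating-like and 14% and 8.61% in hair follicle-like TKO cells, against 1.93% and 1.02%, 1.35% and 0.469%, and 1.47% and 2.52% in Ctrl. Smarca5-ps alone was seen in 1.03% and 0.543% of Ctrl and 6.16% and 4.16% of TKO keratinocytes. Zfp268 was seen in 6.67% and 7.09% of Ctrl and 15.2% and 18.3% of TKO keratinocytes, but also in 7.87% and 15.0% of Ctrl and 13.8% and 15.0% of TKO non-keratinocytes.

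**Figure D5:**
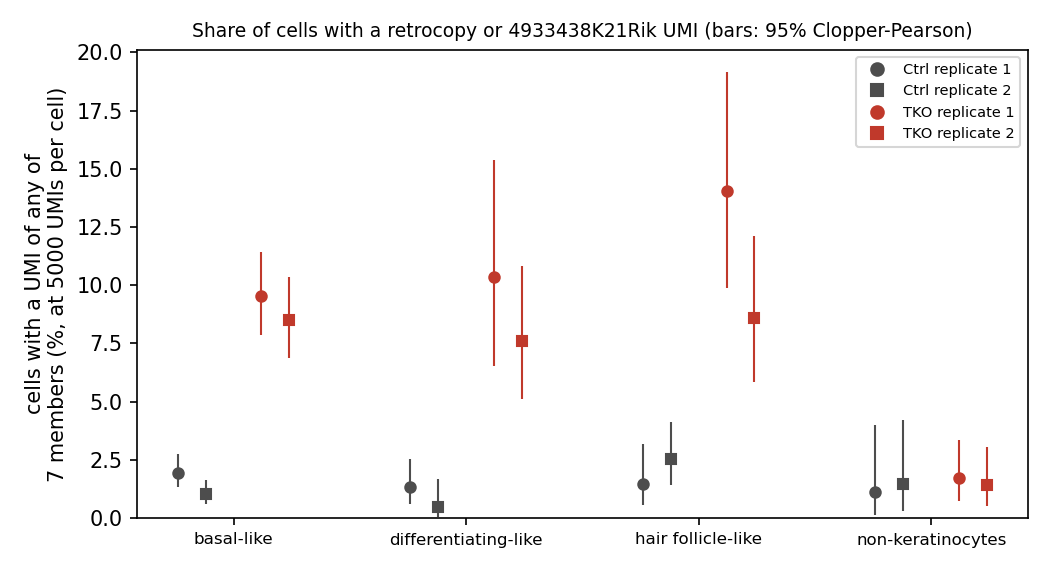
Percent of cells with at least 1 UMI of any member other than Zfp990 and Zfp268, at 5000 UMIs per cell, by cell group and library; bars are exact 95% binomial intervals for counting error. In each keratinocyte class both TKO libraries lie between 7.61% and 14%, and in non-keratinocytes all 4 libraries lie between 1.12% and 1.72%.

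Most pairs of members were too sparse for their shared cells to be read. At 5000 UMIs per cell 19 of 36 pairs were never found together in TKO replicate 1 and 17 in TKO replicate 2, where few cells were expected (0.980 and 0.545 in all for the 10 pairs of the second stretch). The median over pairs of the ratio of observed to expected cells was 0 and 0.456, which such low expectations can set. Summed over pairs, a summary chosen after seeing the data that lay above 1, 116 and 123 cells held both members where the product of the shares gave 90.4 and 105.4, ratios of 1.28 and 1.17. Sums by position were not stable. Ratios within the first stretch (1.44 and 1.25) exceeded those between the stretches (0.902 and 0.741), but in TKO replicate 2 the order turned around at 3000 UMIs per cell (0.938 and 1.98), with doublets kept (1.01 and 1.38) and in basal-like cells alone (1.15 and 1.30). Zfp990 and Zfp268 occurred together in 42 and 59 cells where 30.4 and 47.5 were expected, ratios of 1.38 (counting interval 0.997 to 1.87) and 1.24 (0.945 to 1.60). A member paired with a gene raised elsewhere in the genome (Npffr1, Svop, Col28a1, 1700030N03Rik or Gm42653) gave ratios of 1.16 and 1.05. Pairs among those other genes gave 1.46 and 1.38, above the ratios among members in both libraries. Counts of this size give a description only, and cells of 1 library are not replicates.

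The genes whose levels most resembled the summed members, mostly Zfp990 and Zfp268 by UMIs, were sought among 15853 genes off chromosome 4. The comparison used the 12 sums of 4 libraries and 3 classes. The closest were Exoc4 (Pearson r = 0.988), Atf7ip (0.981), the long noncoding RNA gene ENSMUSG00000121307 (0.972), Resf1 (0.969) and Mtpn (0.965). Of these 5, 4 lie on chromosome 6. The share of all compared genes on that chromosome was not computed, so no weight is given to this number. Exoc4, a subunit of the exocyst, had 258.0 and 236.2 CPM in Ctrl and 448.0 and 445.2 CPM in TKO keratinocytes. These points share libraries and depth and are split by genotype. Atf7ip, a partner of SETDB1, had 86.5 and 71.3 CPM in Ctrl and 206.6 and 247.1 CPM in TKO (log2 change 1.51, SE 0.160, adjusted p = 0.0101, edgeR). It was the 1 gene called among 13 tested partners of SETDB1 and heterochromatin proteins, whose median log2 change was 0.11, a count near the 6.95% called over all genes.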

How the data were processed

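Single-cell RNA-seq libraries of sorted embryonic epidermis (2 Ctrl and 2 TKO) were analysed from the matrices that the authors deposited, which hold raw UMI counts per gene and barcode. Libraries were made with a 10x Genomics 3' v3 kit. Per the file headers the count software was Cell Ranger 7.1.0. The methods of the study, from which the build GRCm39 was taken, give a different version. The annotation release, the strand setting and whether intronic reads were counted are not given in the sources used here.

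The members and the gene lists were chosen with earlier results of these data known. Cells were kept with at least 2000 genes and under 10% mitochondrial UMIs. Scrublet's automatic threshold marked only 2 and 2 Ctrl cells against 32 and 27 TKO cells, so the top-scoring cells at 0.8% per 1000 barcodes were left out as doublets (457 cells). Clusters (scanpy 1.11.5, Leiden resolution 1) were named from marker lists, and keratinocytes needed at least 1000 CPM summed over 6 keratins. Basal-like clusters held 1624 and 1782 Ctrl and 1085 and 1039 TKO cells, differentiating-like 669 and 433 against 203 and 369, and hair follicle-like 411 and 605 against 235 and 340. Clusters without a name (297 cells) stayed in the keratinocyte sums only.

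Counts were summed per library and cell group and tested with edgeR 4.0.16 (quasi-likelihood, TMM factors, default expression filter, R 4.3.3), with a call at a Benjamini-Hochberg adjusted p under 0.05. Class contrasts used library, class and class by genotype as terms. Counts were simulated with a fixed dispersion and no added library effect, for genes above a count floor that left out Gm13140. In these counts, 85% of genes changed by 1 on the log2 scale and 100% of those changed by 2 were recovered between genotypes. Between classes 55% and 97% were recovered. Recovery in the real libraries was not measured and may be lower. CPM were scaled to all UMIs of a cell group, and ± is the SD of 2 libraries. Because each library is 1 embryo and n = 2, p-values between genotypes measure the spread between these embryos only. Those of class contrasts measure the spread left after the library term, over the sums of both genotypes. Alternatives were DESeq2 1.42.0, no expression filter, the replicate number as a block, leaving out each library, thinning to 5000 UMIs, doublets kept, at least 3000 genes per cell, other Leiden resolutions (0.5 and 2) and principal components not corrected for library.

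Transcripts and positions were taken from GENCODE vM39 on GRCm39 by gene ID. Retrocopies were found with blastn 2.17.0+ as annotated pseudogenes aligned to a parent transcript over at least 300 bases at 85% identity or more. Named were all members, the targeted genes, the parent genes, window genes called in keratinocytes, SETDB1 partners called, and the 5 genes most alike in level. Gm13136, Zfp992 and the retrocopies elsewhere were named after their values were seen.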

Additional observations from a re-analysis of the deposited data

Results flagged for a closer look

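The class difference of Zfp268 itself differed between genotypes, by the interaction term of the edgeR fit. Without correction for library the differentiating-like cells of the genotypes lay largely in different clusters, so the classes compared may differ in their cells, and the difference was then -0.56 with no call (adjusted p = 0.0784, edgeR). Hair follicle-like cells exceeded differentiating-like cells by 1.24 on the log2 scale in Ctrl and by 0.50 in TKO, and the difference of these differences, TKO minus Ctrl, was -0.75 (SE 0.163, adjusted p = 0.0482, edgeR). In that test 3.25% of all genes were called. The TKO replicates spread from 38.3 to 51.7 CPM in hair follicle-like cells. The direction was the same in 12 of 12 alternatives, which were run on it because it had passed (-0.90 to -0.39), but 10 of them lost the call, with adjusted p from 0.029 to 0.668.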

How the results depend on the processing

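In keratinocytes 1385 genes were called. DESeq2 called 2647, no expression filter 661, and 5000 UMIs per cell 814. Leaving out 1 library gave 8 to 2105 genes. The lowest left out Ctrl replicate 1, leaving out Ctrl replicate 2 gave 313, and the highest left out TKO replicate 2. The cause was not tested. With the replicate number as a block 989 were called. Same-numbered libraries deviated in opposite directions (Pearson r = -0.25 over 19931 genes), and the crossed pairing, chosen after seeing the data, called 3641. The numbers share no stated litter or day, so the block is no paired analysis. Of the 3 targeted genes 1 was called, and 0 with no filter, the replicate block, 5000 UMIs or doublets kept, and 0 to 1 without 1 library. Setdb1 fell in all 10 alternatives, from -0.76 to -0.50, with adjusted p from 0.00221 to 0.286. The members' median log2 change of 2.16 stayed between 1.99 and 2.41, and the widest range of a member was that of Gm13140, from 3.58 without Ctrl replicate 2 to 7.95 without Ctrl replicate 1, which left no Ctrl UMI. Between differentiating-like and basal-like TKO cells 2 members were called, and 0 with DESeq2 or no library term, 1 with no filter or 5000 UMIs, and 0 to 1 without 1 library. Between hair follicle-like and differentiating-like TKO cells 2 were called, 1 with DESeq2, no filter, no library term, doublets kept or 5000 UMIs, and 0 to 1 without 1 library. A lone TKO or Ctrl library was assumed to vary like the other group. The median ratio of co-detection over pairs was 0.228, rose to 0.962 at 10000 UMIs per cell, was 1.23 when cells were summed over pairs (chosen after seeing the data), and was 0 to 0.456 in single libraries. In non-keratinocytes 0 members were called by edgeR, by DESeq2 or under the other alternatives run. Among all genes there, 117 were called with DESeq2, 1018 with no filter, 1 at 5000 UMIs, and 0 to 37 without 1 library. No reported log2 change reversed its sign in the alternatives run on it, while the co-detection ratio crossed 1 with the summary used, and reached 1.08 as a median at 10000 UMIs in TKO replicate 1.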

Other observations

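Zfp268 and Zfp990 had opposite orders among non-keratinocytes, in values from few cells that were not tested. Zfp268 was higher in immune-like than in fibroblast-like cells in 4 of 4 libraries. Zfp990 was lower in immune-like cells in 4 of 4 libraries, with 4.82 to 7.85 CPM in immune-like and 10.4 to 13.7 CPM in fibroblast-like cells.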
